A study of Mus musculus with 8 samples.

Results

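The extracellular matrix genes described here encode laminins, the proteins that link basement membranes, fibronectin and elastic fibre components, matricellular proteins, proteoglycans and crosslinking enzymes. They were chosen by name, 38 genes in all, with earlier results of these data known. Of them, 36 were measured by at least 1 probe set annotated with a single gene symbol, out of 18193 genes so measured on the array. Those 36 genes had 80 of the 45037 probe sets tested. Fbn1 and Loxl2 are not analysed here. The cultures were C2C12, an established mouse myoblast line that forms multinucleated myotubes when serum is reduced. In 4 of them a lentivirus delivered siRNA to Trp53inp2, the gene of the protein DOR, and in the 4 controls it delivered scrambled RNA. Control and knockdown cells alike had thus been infected, at a moi of 100, grown on for between 5 and 7 days and sorted by flow cytometry until 93 to 99% carried GFP. Per the labels' protocols all 8 cultures were then kept for 4 days in medium with 5% horse serum. Other labels call them confluent myoblasts, and the descriptions hold a D2 mark that is not explained, so the stage at harvest is not settled. DOR acts as a nuclear receptor cofactor and in the formation of autophagosomes, and the comparison asks which transcripts differ when it is reduced. The labels name a single line and no second siRNA, and the origin of the replicate cultures is not described, so the p-values measure the spread between these cultures only.

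Matrix proteins surround muscle cells in layers. Laminins assemble from an alpha, a beta and a gamma chain into the sheet of the basement membrane, which nidogens, perlecan (Hspg2) and agrin (Agrn) tie to collagen IV and to cell surface receptors. Outside that sheet lie fibronectin, elastic fibres built on fibrillins, small proteoglycans such as decorin (Dcn) and biglycan (Bgn) that bind collagen fibrils, and matricellular proteins, which are thought to tune contacts between cells and matrix more than to bear load. Lysyl oxidases crosslink collagen and elastin. Myoblasts secrete many of these proteins, and myotubes carry a laminin-rich basement membrane.

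The target transcript was lower in each knockdown culture by its brighter probe set. Trp53inp2 had a mean of 11.35 ± 0.29 log2 units in the scrambled arrays and 9.51 ± 0.31 in the DOR siRNA arrays (SD, n = 4 each). The difference was -1.83 ± 0.17 (standard error; limma adjusted p = 0.00087), while the dimmer probe set differed by 0.14 ± 0.08 (limma adjusted p = 0.52). Medians of single arrays ran from 6.14 to 6.20 log2 units, and no 2 arrays were identical. A gene whose means in both groups lay under 6.18, the median of all values, is called dim below, and nothing shows that it was above background. All differences below subtract the scrambled mean from the DOR siRNA mean in log2 units, errors given with them are standard errors from limma, and a call is a Benjamini-Hochberg adjusted p under 0.05 over all 45037 probe sets. Each gene is read from its probe set with the highest mean.

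Of the 36 matrix genes, 3 rose with DOR knockdown: Spon2, Thbs3 and Nid1. That is 8.33% of the matrix genes measured, against 3.11% of all genes called higher. Dim genes were 8 of the 36 matrix genes but 6785 of all 18193 genes, so these shares do not compare genes of like brightness. With dim probe sets left out, the same 3 of 28 matrix genes were called higher, against 5.99% of all 11408 genes kept. Since the genes were chosen with earlier results known, these shares and those below describe them and do not test an excess. None fell by the same limma test, against 1.45% of all genes called lower. At an unadjusted p under 0.05, 15 matrix genes were higher and 0 lower, where the shares over all genes were 11.5% higher and 6.55% lower. The median difference of the matrix genes was 0.16 log2 units against 0.015 for all genes, and 27 of 36 differences were above 0. The 4 knockdown values lay wholly above the 4 scrambled ones for 7 matrix genes, which is 19.4% beside 8.1% of all genes, and wholly below them for 0, beside 4.13% of all genes. Counted over their 80 probe sets, 3 were called, all of them higher and each the brightest of its gene, against 2.04% of all probe sets called higher. When the cultures were paired by replicate number 6 genes rose and 1 fell, against 5.1% of all genes higher and 3.16% lower in that fit. In the same arrays genes of differentiated muscle fell and genes of proliferating cells rose (values given with the marker lists), and in bulk cultures fewer cells of a type and less RNA per cell cannot be told apart. The genes added by the pairing were Thbs2, Dcn and Lum as higher and Postn as lower. With scrambled 4 left out 6 genes rose (Nid1, Spon2, Thbs2, Thbs3, Dcn and Lox), and with DOR siRNA 3 left out 2 did, since Nid1 was lost. The share of all genes called higher moved in the same direction, to 4.33% without scrambled 4 and 1.41% without DOR siRNA 3. Without DOR siRNA 2 the differences of Fbln2, Vcan, Lama5 and Lamb3, none of them called, were 0.27, 0.18, 0.14 and 0.15, against 0.45, 0.33, 0.27 and 0.26 over all arrays.

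**Figure D1:**
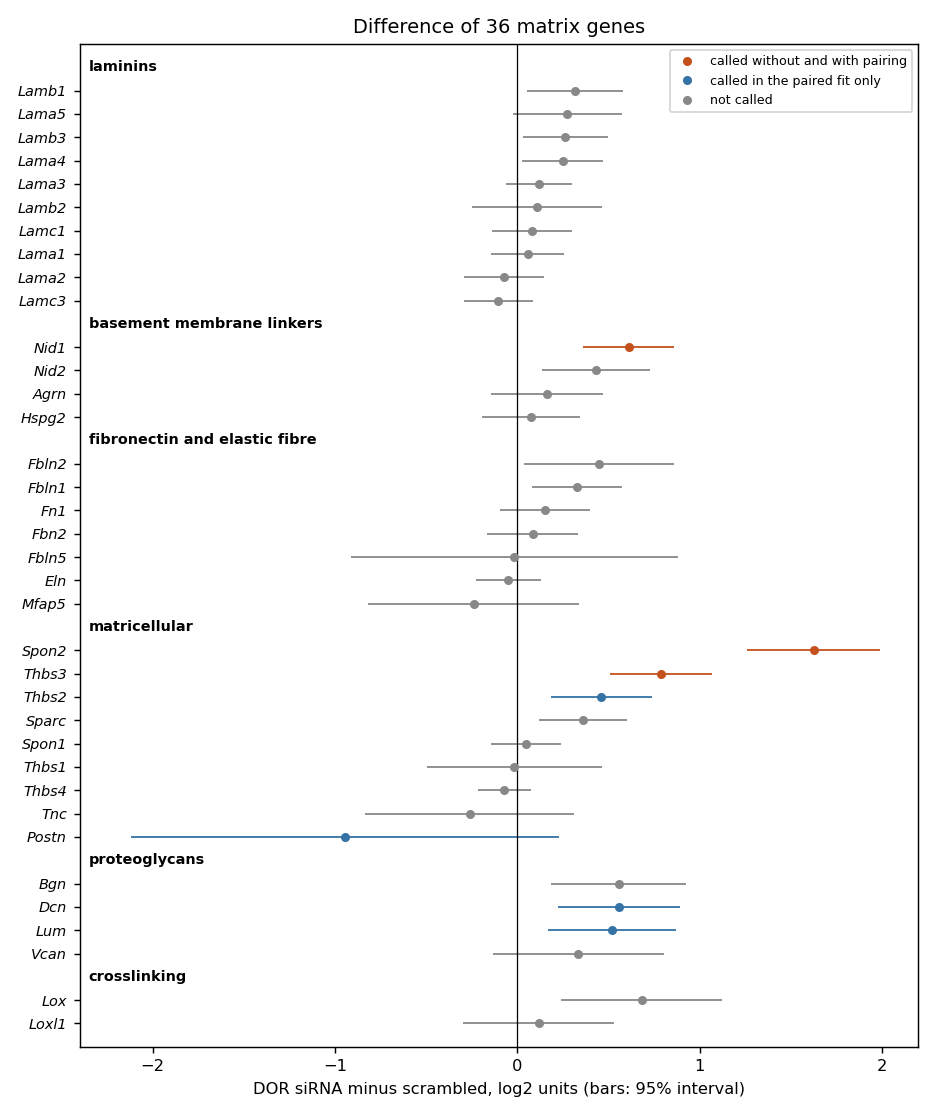
Difference of each of the 36 matrix genes, DOR siRNA minus scrambled, in log2 units on the horizontal axis, with genes grouped by role on the vertical axis. Points are the limma estimates from the unpaired fit and bars their 95% intervals. Spon2, at 1.63, stands farthest to the right, and Postn, at -0.94, farthest to the left with an interval that spans 0.

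The upstream sequences of Nid1 and Thbs3, 2 of the 3 called genes, are shown because promoter windows were found for both. No window was found for Spon2, so its start region was not examined. RefSeq promoter windows of build GRCm38.p6 were matched by symbol for 19 of the 36 matrix genes, giving 25 windows. The 250 bases before the annotated start were searched on both strands for the TATA box (TATAAA), the CCAAT box (CCAAT), the GC box (GGGCGG), the E-box bound by myogenic factors (CANNTG) and the nuclear receptor half-site (AGGTCA). Capitals mark every match on either strand, and no matches overlapped.
Nid1, chr13:13437352-13437601, plus strand: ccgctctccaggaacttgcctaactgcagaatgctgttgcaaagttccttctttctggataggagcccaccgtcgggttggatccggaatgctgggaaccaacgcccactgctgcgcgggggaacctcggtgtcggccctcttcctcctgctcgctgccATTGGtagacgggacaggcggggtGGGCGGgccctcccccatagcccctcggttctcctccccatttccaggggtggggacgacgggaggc
Thbs3, chr3:89214930-89215179, plus strand: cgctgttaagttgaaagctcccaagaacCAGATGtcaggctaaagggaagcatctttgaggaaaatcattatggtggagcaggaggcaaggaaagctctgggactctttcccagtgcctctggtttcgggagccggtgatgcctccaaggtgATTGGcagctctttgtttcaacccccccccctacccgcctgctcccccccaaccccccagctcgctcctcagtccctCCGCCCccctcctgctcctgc
Each window held a CCAAT box on the minus strand, beginning 91 bases before the start in Nid1 and 98 bases before it in Thbs3, and a GC box, beginning 67 bases before the start in Nid1 and 21 in Thbs3. Thbs3 also held an E-box, 222 bases before its start. Neither window held TATAAA or AGGTCA. Over all 32851 windows the CCAAT box was found in 33.8%, the GC box in 32.7%, the E-box in 66.2%, the TATA box in 12.4% and the half-site in 14%. Over the 25 matrix windows the shares were 24%, 60%, 76%, 16% and 4% in the same order, which are descriptions of the letters and not of binding.

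Among the matricellular genes 2 of 9 rose, Spon2 and Thbs3, and none fell by limma (at an unadjusted p under 0.05, 4 higher and 0 lower). For this group and those below, the shares over all genes were 3.11% called higher and 1.45% lower, and 11.5% and 6.55% unadjusted. Spon2 encodes spondin 2, also called mindin, a secreted matrix protein known from innate immunity. Its values were 7.66, 7.70, 7.43 and 7.57 log2 units in scrambled 1 to 4 and 9.43, 9.64, 9.04 and 8.75 in DOR siRNA 1 to 4. The lowest knockdown value lay more than 1 log2 unit above the highest scrambled one. The mean rose from 7.59 ± 0.12 to 9.22 ± 0.40 (SD, n = 4 each), a 3.09-fold increase with a log2 difference of 1.63 ± 0.17 (limma adjusted p = 0.0011). The dimmer of its 2 probe sets differed by 0.30 ± 0.10 (limma adjusted p = 0.14), and the mean over both differed by 0.96 (limma adjusted p = 0.0030), so the size of the rise depends on the probe set.

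Thbs3 encodes a thrombospondin of the pentameric kind, known from cartilage, bone and heart. It read 6.45, 6.29, 6.35 and 6.32 in scrambled 1 to 4 and 7.13, 7.54, 7.03 and 6.85 in DOR siRNA 1 to 4. The groups did not overlap, and DOR siRNA 2 was the highest value. The mean rose from 6.35 ± 0.07 to 7.14 ± 0.29, a 1.73-fold increase (log2 difference 0.79 ± 0.13, limma adjusted p = 0.0098). The call was kept whichever array was left out, with adjusted p between 0.0061 and 0.037. The scrambled values lay little above 6.18, so the size of the rise is not firm.

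The other thrombospondins differed less. Thbs2, which encodes a trimeric thrombospondin known as an inhibitor of blood vessel growth, had values of 8.40, 8.34, 8.29 and 8.70 in scrambled 1 to 4 and 8.96, 9.17, 8.64 and 8.80 in DOR siRNA 1 to 4. The knockdown value was higher in 4 of 4 pairs, but the groups overlapped at scrambled 4. The difference was 0.46 ± 0.13, with limma adjusted p = 0.077 unpaired, 0.049 paired and 0.029 without scrambled 4. Thbs1, the trimeric relative that activates latent TGF-beta, differed by -0.02 with a 95% interval from -0.50 to 0.47. Thbs4, which was dim, differed by -0.07 (interval -0.22 to 0.08).

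Postn encodes periostin, which binds collagen and integrins and is induced in injured muscle and by TGF-beta. Its values were 11.86, 11.76, 10.78 and 10.33 in scrambled 1 to 4 and 11.13, 11.30, 9.86 and 8.67 in DOR siRNA 1 to 4. Cultures 1 and 2 were high and cultures 3 and 4 low in either group, so that the groups overlapped widely, yet the knockdown value was the lower in each of the 4 pairs, by 0.73, 0.46, 0.92 and 1.66 log2 units. The difference was -0.94 ± 0.53 in the unpaired fit (limma adjusted p = 0.46, and 0.25 to 0.75 over the arrays left out in turn). In the paired fit its standard error was 0.17, and limma adjusted p = 0.014. Without DOR siRNA 4 the unpaired difference was -0.42.

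Tenascin C (Tnc), a large glycoprotein of developing and healing tissue, showed a like order of cultures. It read 10.15, 9.69, 9.42 and 9.61 in scrambled 1 to 4 and 9.87, 10.07, 9.10 and 8.79 in DOR siRNA 1 to 4, a difference of -0.26 ± 0.26 (limma adjusted p = 0.74). That difference was -0.47 without DOR siRNA 2 and -0.038 without DOR siRNA 4. Sparc, also called osteonectin, which binds collagen and calcium, had scrambled values of 13.05 to 13.31 and knockdown values of 13.37 to 13.80. Those groups did not overlap, but the difference of 0.36 ± 0.11 did not pass (limma adjusted p = 0.11). Spon1, the relative of Spon2 better known from the nervous system, was dim by the brightest of its 4 probe sets (means 5.46 and 5.51) and differed by 0.05 (interval -0.15 to 0.24).

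**Figure D2:**
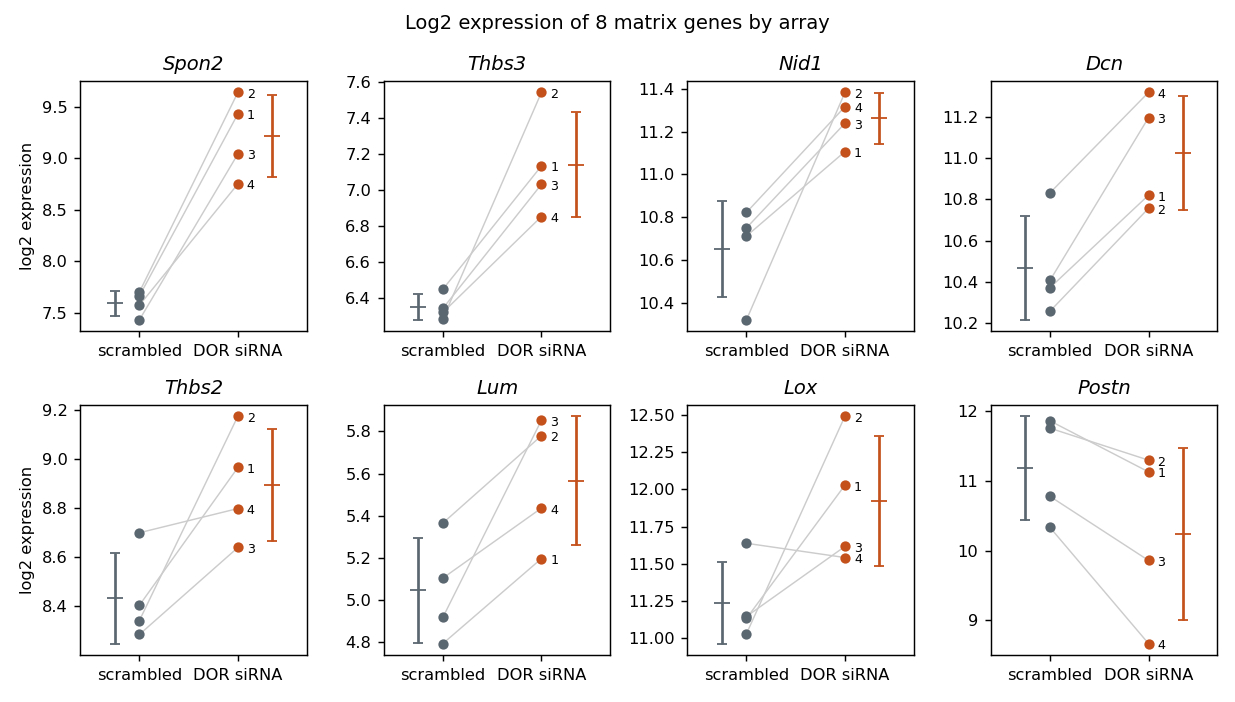
Log2 expression (vertical axes, each with its own range) of 8 matrix genes in the 4 scrambled and 4 DOR siRNA arrays. Points are arrays, grey lines join arrays with the same replicate number (printed beside the knockdown points), and the bars give the mean and SD of each group. Spon2, Thbs3 and Nid1 show no overlap between the groups, and all 4 lines of Postn slope downward although its groups overlap.

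Of the 4 basement membrane linkers 1 rose, and none fell by limma (at an unadjusted p under 0.05, 2 higher and 0 lower). Nid1 encodes nidogen 1, which bridges laminin and collagen IV. Its values were 10.71, 10.32, 10.75 and 10.82 in scrambled 1 to 4 and 11.11, 11.38, 11.24 and 11.32 in DOR siRNA 1 to 4. The groups did not overlap, and scrambled 2 was the lowest value. The mean rose from 10.65 ± 0.23 to 11.26 ± 0.12, a 1.53-fold increase (log2 difference 0.61 ± 0.11, limma adjusted p = 0.018). Its other probe sets differed by 0.47 ± 0.13 (limma adjusted p = 0.073 unpaired and 0.0075 paired) and by 0.34 ± 0.17 (limma adjusted p = 0.40). The call of Nid1 was lost without DOR siRNA 3 (adjusted p = 0.054) and in the mean over its 3 probe sets (difference 0.47, adjusted p = 0.060).

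Nid2, the second nidogen, read 10.00, 9.86, 10.06 and 10.14 in scrambled 1 to 4 and 10.52, 10.83, 10.24 and 10.18 in DOR siRNA 1 to 4. The groups lay apart by a narrow margin, and the difference of 0.43 ± 0.13 did not pass (limma adjusted p = 0.12). Perlecan (Hspg2), a heparan sulfate proteoglycan, differed by 0.08 (95% interval -0.19 to 0.35). Agrn, which clusters acetylcholine receptors at the nerve contact and binds dystroglycan, differed by 0.16 (interval -0.15 to 0.47), with DOR siRNA 2 at 8.12 and the other knockdown values between 7.39 and 7.60.

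No laminin chain passed the limma test, in either direction; at an unadjusted p under 0.05, 3 of the 10 measured were higher and 0 lower. The median difference was 0.11, and 8 of 10 were above 0. Lamb1, the beta chain of the laminins found in many tissues, read 10.56, 10.24, 10.54 and 10.64 in scrambled 1 to 4 and 10.68, 11.12, 10.78 and 10.67 in DOR siRNA 1 to 4, a difference of 0.32 ± 0.12 (limma adjusted p = 0.22). Its groups did not overlap, though only by a little, and its 4 probe sets gave differences between 0.26 and 0.32. Lamb3, a chain of epithelial laminin, differed by 0.26 ± 0.11 (limma adjusted p = 0.25), also without overlap.

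The alpha chains set which receptors a laminin binds. Lama2, the alpha chain of adult muscle laminin whose loss causes a congenital muscular dystrophy, differed by -0.07, with a 95% interval from -0.29 to 0.15. Lama4, of vessels and embryonic muscle, was dim and differed by 0.25 (0.02 to 0.47, limma adjusted p = 0.26). Lama5 differed by 0.27 (-0.03 to 0.57, limma adjusted p = 0.38). The embryonic chain Lama1 and the epithelial chain Lama3 were dim, with differences of 0.06 and 0.12. Among the remaining chains Lamb2, of the laminin at neuromuscular junctions, differed by 0.11 (-0.25 to 0.46), the common gamma chain Lamc1 by 0.08 (-0.14 to 0.30) and the dim Lamc3 by -0.10 (-0.29 to 0.08). The other probe sets of Lamc1 and Lamc3 had the opposite sign, at -0.09 and 0.06.

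The 4 proteoglycans all had higher knockdown means, with a median difference of 0.54, but none passed the unpaired limma test (at an unadjusted p under 0.05, 3 higher and 0 lower); Dcn and Lum passed when the cultures were paired. Decorin (Dcn) binds collagen and TGF-beta. It read 10.37, 10.26, 10.41 and 10.83 in scrambled 1 to 4 and 10.82, 10.76, 11.20 and 11.32 in DOR siRNA 1 to 4. The groups overlapped only through scrambled 4, and the 4 paired differences ran from 0.45 to 0.79. The difference was 0.56, with a standard error of 0.15 unpaired (limma adjusted p = 0.077) and 0.083 paired (limma adjusted p = 0.0076). Without scrambled 4 the unpaired adjusted p was 0.021, and the mean over its 2 probe sets differed by 0.34.

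Biglycan (Bgn), the close relative of decorin, read 12.52, 12.40, 12.58 and 12.45 in scrambled 1 to 4 and 13.17, 13.54, 12.88 and 12.57 in DOR siRNA 1 to 4. The groups met at DOR siRNA 4 and scrambled 3. Its rank among knockdown cultures was the reverse of that of decorin at the ends, with DOR siRNA 2 the highest and 4 the lowest for Bgn and 4 the highest and 2 the lowest for Dcn. The difference was 0.56 ± 0.17 (limma adjusted p = 0.11 unpaired, 0.064 paired and 0.028 without DOR siRNA 4), and its 3 probe sets gave 0.56 to 0.59. Lumican (Lum), which spaces collagen fibrils, was dim, with means of 5.05 and 5.57. Its difference of 0.52 had limma adjusted p = 0.11 unpaired and 0.025 paired. Versican (Vcan), the large proteoglycan of provisional matrix, differed by 0.33 ± 0.21 (limma adjusted p = 0.54), and its 8 probe sets gave differences between -0.20 and 0.47.

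Fibronectin and the elastic fibre genes held no call among 7 measured by limma (at an unadjusted p under 0.05, 2 higher and 0 lower), and their median difference was 0.084. Fibulin 1 (Fbln1), which binds fibronectin and basement membranes, read 7.94, 7.61, 7.44 and 7.87 in scrambled 1 to 4 and 8.11, 7.93, 8.02 and 8.12 in DOR siRNA 1 to 4, with an overlap at scrambled 1. The difference was 0.33 ± 0.11 (limma adjusted p = 0.16). Fibulin 2 (Fbln2) differed by 0.45 ± 0.19 (limma adjusted p = 0.27) and was higher in 4 of 4 pairs. Its knockdown values ran from 8.93 to 9.84 and its scrambled ones from 8.51 to 9.19.

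Fbln5, which is needed to assemble elastin, was the most variable across knockdown cultures within that group. It read 9.29, 10.03, 8.26 and 7.66 in DOR siRNA 1 to 4, an SD of 1.05, against 8.53 to 9.22 in the scrambled arrays. Its difference of -0.02 therefore had a 95% interval from -0.91 to 0.88, wide enough to hold changes of nearly 1 log2 unit either way. Fibronectin (Fn1), the main provisional matrix glycoprotein, differed by 0.15 (interval -0.09 to 0.40), and its other probe set by -0.07. Elastin (Eln) differed by -0.05 (-0.23 to 0.13) and fibrillin 2 (Fbn2), which was dim, by 0.08 (-0.16 to 0.33). The other probe sets of Eln and Fbn2 had the opposite sign, at 0.06 and -0.04. Mfap5, a microfibril glycoprotein, differed by -0.24 (-0.82 to 0.34), with scrambled 4 at 7.59 and the other 7 arrays between 6.14 and 6.56. Without scrambled 4 that difference was 0.095. Its other probe set, which was dim, differed by -0.22 (-0.47 to 0.04). That probe set read 6.01, 5.90, 6.27 and 6.47 in scrambled 1 to 4 and 5.89 to 5.99 in the knockdown arrays.

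Neither crosslinking enzyme measured passed the limma test (at an unadjusted p under 0.05, 1 higher and 0 lower). Lox, lysyl oxidase, read 11.13, 11.03, 11.15 and 11.64 in scrambled 1 to 4 and 12.03, 12.49, 11.62 and 11.54 in DOR siRNA 1 to 4. DOR siRNA 3 and 4 lay just under scrambled 4, and the other knockdown values lay above all controls. The difference was 0.68 ± 0.20 (limma adjusted p = 0.099 unpaired, 0.093 paired and 0.041 without scrambled 4). Loxl1, known for its part in elastic fibre renewal, differed by 0.12 (interval -0.30 to 0.53).

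The matrix genes did not change evenly over the knockdown cultures. DOR siRNA 2 held the highest knockdown value for 25 of 36 genes, DOR siRNA 4 for 7, DOR siRNA 3 for 4 and DOR siRNA 1 for 0. Averaged over the 36 genes, the value above the scrambled mean was 0.50 log2 units in DOR siRNA 2, 0.25 in DOR siRNA 1, 0.13 in DOR siRNA 3 and 0.013 in DOR siRNA 4, while the scrambled arrays ran from -0.039 to 0.028. Without DOR siRNA 2 the calls of Spon2 (1.48), Thbs3 (0.65) and Nid1 (0.57) were kept and the median difference was 0.13. Without DOR siRNA 4 the median was 0.28, with Bgn added to the genes that rose.

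**Figure D3:**
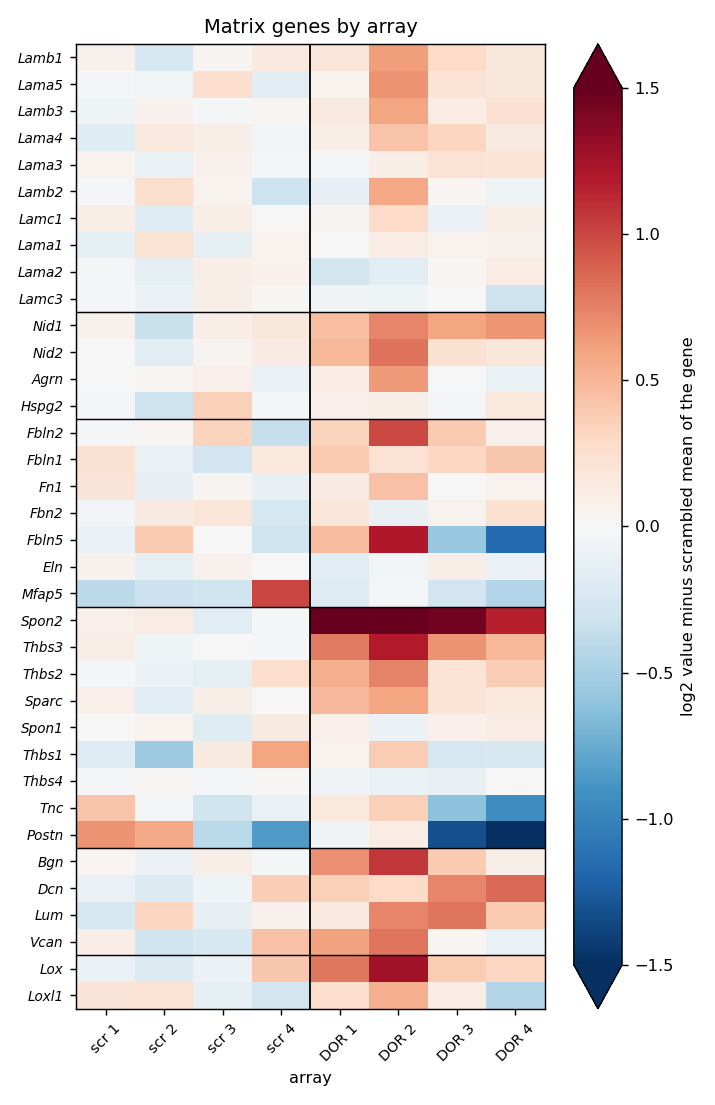
Log2 value of each of the 36 matrix genes (rows, grouped by role and separated by lines) in each of the 8 arrays (columns), minus the gene's mean over the scrambled arrays; the colour scale ends at 1.5 in either direction. DOR siRNA 2 has the most red cells of the knockdown columns, while Postn, Tnc and Fbln5 turn blue in DOR siRNA 3 and 4.

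Related genes were compared within each array, in 9 pairs, to see whether they changed unequally. The exact two-sided permutation test over 4 against 4 arrays cannot go below 0.029, so at least 6 of the 9 pairs would have to reach that value for any to pass after adjustment. No pair passed, which says little in such a design. Spon2 minus Spon1 was larger by 1.58 in the knockdown, without overlap between the groups (exact permutation p = 0.029, 0.26 adjusted over the pairs), although Spon1 was dim. Thbs2 minus Thbs1 was larger by 0.48 (exact permutation p = 0.057, 0.26 adjusted). Loxl1 minus Lox was smaller in the knockdown, with a difference of -0.56 (exact permutation p = 0.086, 0.26 adjusted). The test does not use the replicate numbers; between same-numbered arrays Loxl1 minus Lox differed by -0.83, -1.14, -0.23 and -0.06, below 0 in 4 of 4. The nidogens (-0.18 for Nid2 minus Nid1), Lamb2 minus Lamb1 (-0.21), Lama5 minus Lama4 (0.026), Agrn minus Hspg2 (0.086) and Fbln2 minus Fbln1 (0.12) had exact permutation p of 0.37 or more. Bgn minus Dcn differed by 0.00015 on average, but its SD over the knockdown arrays was 0.68, beside 0.27 over the controls.

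**Figure D4:**
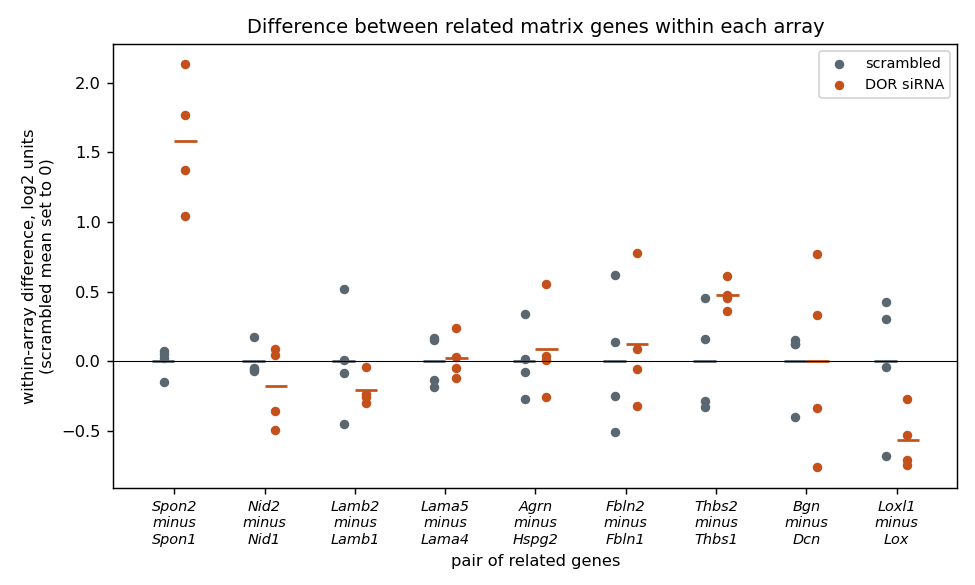
Difference between 2 related matrix genes within each array, in log2 units with the mean of the scrambled arrays set to 0 (vertical axis), for 9 pairs (horizontal axis). Points are arrays and short lines group means. Only for Spon2 minus Spon1 do the 4 knockdown arrays lie wholly beyond the scrambled ones.

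Other matrix genes, in lists chosen by function, held calls that were mostly higher, as were the calls over all genes (3.11% higher and 1.45% lower). In the order of this paragraph, 19.0%, 7.41% and 5.26% of the lists were called higher. Of 21 other basement membrane and elastic fibre genes 4 rose and none fell by limma (at an unadjusted p under 0.05, 8 higher and 2 lower): Emilin2 (0.92 ± 0.12), Efemp1 (1.24 ± 0.17, dim, with a scrambled mean of 4.62), Ltbp2 (0.90 ± 0.19) and Emilin1 (0.44 ± 0.10), which encode elastic fibre glycoproteins and a latent TGF-beta binding protein relative. That count was 2 without scrambled 1, 2 or 3 or DOR siRNA 1. The share of all genes called higher also moved, to 1.51%, 1.51% and 1.34% without scrambled 1, 2 and 3. Without DOR siRNA 1, 3 and 4 that share was 1.73%, 1.41% and 2.56%, and without DOR siRNA 2 the share called lower was 1.53%. Of 27 other matricellular genes and proteoglycans, 2 rose, the small proteoglycan Prelp (0.92 ± 0.15) and Ccn3 (1.18 ± 0.28), and none fell (6 higher and 1 lower unadjusted). The median difference of that list was -0.00026, with 13 of 27 differences above 0. The number that rose was 4 without DOR siRNA 4 and 1 without scrambled 1, 2 or 3 or DOR siRNA 1 or 3. The collagen processing and crosslinking enzymes had 1 of 19 higher, Crtap (0.61 ± 0.11), a partner of collagen prolyl 3-hydroxylase, and none lower (9 higher and 1 lower unadjusted). It became 4 higher and 1 lower with the cultures paired, 5 higher without DOR siRNA 4, 0 higher without scrambled 1 or DOR siRNA 3, and 1 lower without DOR siRNA 2.

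Of 28 receptors of the matrix, 1 rose and 3 fell by limma, and without adjustment 9 were higher and 4 lower at p under 0.05, with 19 of 28 differences above 0 and a median of 0.16. The share called higher, 3.57%, was near that of all genes. The heparan sulfate proteoglycan Sdc1 rose (0.59 ± 0.10), while Itgb6 (-1.02 ± 0.14), a TGF-beta activating integrin chain, Itga6 (-0.53 ± 0.11), a laminin-binding integrin chain, and Cd36 (-1.05 ± 0.17), which binds thrombospondin and fatty acids, fell. Itga7, the laminin-binding alpha chain of muscle, differed by -0.12 (limma adjusted p = 0.72) and is named after its values were seen. With the cultures paired 2 receptors rose and 4 fell; the number that rose was 2 without DOR siRNA 2 and 0 without DOR siRNA 3. Of 31 proteases and inhibitors 3 rose and none fell by limma (6 higher and 1 lower unadjusted): Reck (0.62 ± 0.12), a membrane inhibitor of metalloproteinases, the plasminogen activator Plat (0.56 ± 0.10) and Htra1 (0.61 ± 0.13). That count was 5 without DOR siRNA 4, 0 without scrambled 1 or 3 and 1 without DOR siRNA 3 or scrambled 2. Over all genes the share called higher was 1.51%, 1.51% and 1.34% without scrambled 1, 2 and 3. It was 2.61%, 1.41% and 2.56% without DOR siRNA 2, 3 and 4. The share of proteases and inhibitors called higher was 9.68%, against 3.11% of all genes.

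The state of the cultures also differed between the groups. Over all genes 3.11% were called higher and 1.45% lower, and 11.5% and 6.55% at an unadjusted p under 0.05. Of 20 genes of differentiated muscle 10 fell, among them Actn2 (-1.71 ± 0.20), Neb (-0.90 ± 0.11), Myh4 (-2.55 ± 0.40) and Myh1 (-1.18 ± 0.19). At an unadjusted p under 0.05, 0 of the 20 were higher and 18 lower by limma. Their mean level ran from 12.13 to 12.47 in the scrambled arrays and from 11.35 to 11.76 in the knockdown arrays. Without scrambled 1, 2 or 3 the number that fell was 4, and without scrambled 4 it was 12. It was 6, 10, 5 and 5 without DOR siRNA 1, 2, 3 and 4. The share of all genes called lower was 0.588%, 0.687%, 0.682% and 2.63% without scrambled 1, 2, 3 and 4. Without DOR siRNA 1, 2, 3 and 4 that share was 0.846%, 1.53%, 0.594% and 0.863%. Of 11 genes of proliferating cells 7 rose (9 higher and 0 lower unadjusted), Aurkb (0.66 ± 0.08), Birc5 (0.68 ± 0.09), Bub1 (0.57 ± 0.10) and Top2a (0.59 ± 0.11) with the smallest p. The number that rose was 4 without scrambled 2 or 3 or DOR siRNA 3, and 8 without scrambled 4. The share of all genes called higher was 1.51%, 1.34%, 1.41% and 4.33% in these settings, in that order. The mean level of the 11 ran from 8.69 to 8.90 in the scrambled arrays and from 9.22 to 9.40 in the knockdown arrays. In DOR siRNA 1 to 4 the matrix genes lay on average 0.25, 0.50, 0.13 and 0.013 above the scrambled mean. The muscle levels of these cultures were 11.76, 11.72, 11.55 and 11.35, and their proliferation levels 9.26, 9.22, 9.25 and 9.40. The part of the shift in culture state in the matrix results was not tested.

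Of 10 myoblast markers Cd34 (1.17 ± 0.14) and Vcam1 (0.76 ± 0.16) rose and Ncam1 fell (-0.59 ± 0.11), with mean levels of 9.20 to 9.41 in the scrambled and 9.44 to 9.66 in the knockdown arrays. At an unadjusted p under 0.05, 4 were higher and 1 lower by limma. For these markers and those below, the shares over all genes were 3.11% called higher and 1.45% lower, and 11.5% and 6.55% unadjusted. Of 10 fibroblast markers Gsn (0.76 ± 0.11) and Pdgfra (0.57 ± 0.12) rose (at an unadjusted p under 0.05, 7 higher and 0 lower by limma). The median difference of the 10 was 0.38, and their mean level ran from 9.15 to 9.30 and from 9.32 to 9.79. The part of these genes in the matrix results was not tested. The higher calls of either list numbered 1 without scrambled 1, 2 or 3 or DOR siRNA 1 or 3. In those settings between 1.34% and 1.73% of all genes were called higher. The call of Ncam1 was lost without scrambled 1 or 3 or DOR siRNA 3. There 0.588%, 0.682% and 0.594% of all genes were called lower. Of 8 macrophage markers Cd14 rose (0.65 ± 0.10), while Ptprc had means of 3.08 and 3.18. Of the 8, 4 were dim, and the mean level ran from 5.53 to 5.61 and from 5.57 to 5.68. No call was made among 7 adipocyte markers (unadjusted 0 higher and 0 lower by limma; mean level 5.52 to 5.70 and 5.48 to 5.81, 4 dim, Adipoq at 3.18 and 3.24) or 8 endothelial markers (unadjusted 0 higher and 1 lower; mean level 4.95 to 5.19 and 4.95 to 5.03, 8 dim). Des and Myod1, which define the muscle lineage, had means of 12.93 and 12.86 and of 11.51 and 11.46.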

How the data were processed

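Per the labels' protocols, 25 ng of RNA from each of 8 C2C12 cultures underwent whole transcriptome amplification before labelling for Affymetrix arrays with a single colour. The deposited values are log2 expression values per probe set that the authors made with RMA, per the submitters' processing notes; its version is not given in the sources used here. RMA makes the arrays' distributions alike, so a shift of all transcripts one way would not be visible. The scanner files were not used here, the file holds no detection calls, and the number of arrays limits the precision. Of the probe sets, 64 controls were left out; 34945 had 1 symbol, 932 several and 9160 none, and the gene identifiers of 34741 matched RefSeq. limma 3.58.1 (R 4.3.3) compared the groups on all 45037 probe sets, with two-sided p-values. Fits with the replicate number as a block, without each array, on the mean of all probe sets of a gene, without dim probe sets, after cyclic loess and with a variance trend were alternatives. Same-numbered arrays' deviations from their group means correlated at 0.15, 0.19, 0.14 and 0.47 for numbers 1 to 4. Arrays of different numbers correlated at -0.39 to 0.27, and 5 of the 8 arrays correlated best with their own number. The ground for pairing by number is therefore limited. The unpaired fit stays the main one, as designed, and paired values stand beside the results they alter. The fit was tested on simulated data. Called members, and the 2 with the smallest p in a group without calls, are given in full by rule, and the remaining members more briefly; in other lists up to 4 called genes are named. The members and lists were chosen with earlier results of these data known. Figures were drawn with matplotlib 3.10.9.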

Additional observations from a re-analysis of the deposited data

Results flagged for a closer look

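One value stood far from its group. Mfap5 read 7.59 log2 units in scrambled 4, while the other 3 scrambled arrays lay between 6.20 and 6.29, so that the gap made up 0.93 of the whole range of the group, above Dixon's critical value for 4 values. It was the only value so marked among 72 groups of 4 arrays, where chance alone marks about 1 group in 20.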

How the results depend on the processing

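Spon2 and Thbs3 were called under each of the alternatives run, and Nid1 under all but the 2 given in the report. Pairing by replicate number (replicate block) gave 6 matrix genes higher and 1 lower, with 2 proteoglycans higher and 1 matricellular gene lower; it also gave 1 of the other basement membrane and elastic fibre genes lower, 4 processing enzymes higher and 1 lower, 2 receptors higher, and 1562 probe sets higher and 1265 lower over the array (917 and 535 unpaired). Pairing kept the side of the threshold of the remaining 32 members. The mean over probe sets left 0 linkers, 1 other matricellular gene, 2 processing enzymes, 2 receptors and 1 fibroblast marker higher and 0 myoblast markers lower. Without dim probe sets 2 processing enzymes and 3 receptors were higher; cyclic loess gave 2 processing enzymes, and the variance trend 1 other matricellular gene. With 1 array left out, counts ran from 2 to 6 for matrix genes higher, 0 to 1 for linkers, proteoglycans and crosslinking enzymes, 2 to 5 for other basement membrane and elastic fibre genes, 1 to 4 for other matricellular genes, 0 to 5 for processing enzymes higher and 0 to 1 lower, 0 to 2 for receptors higher, 0 to 5 for proteases, 4 to 12 for differentiated muscle lower, 1 to 3 for myoblast and fibroblast markers higher, 0 to 1 for myoblast markers lower, 4 to 8 for proliferation genes, and 377 to 1299 probe sets higher and 197 to 1011 lower. The median difference of the matrix genes was 0.27 over the 28 left without dim probe sets. The causes were not tested. Differences of dim genes are compressed, and 8 of the 36 members were dim in both groups.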
